A study of Mus musculus with 6 samples.

Results

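The genes described here make, load and release GABA or give hippocampal inhibitory interneurons their identity. They were measured in hippocampi of IκBα-deficient and control mice. The 9 genes were named by symbol, and the members were selected from the arrays as every probe set annotated to 1 of these symbols and to no other gene. All 9 genes were found, with 19 probe sets, among 18193 genes with 34945 such probe sets. A probe set is a group of short array probes that together report 1 transcript or part of it. Of the 9 genes, 6 had more than 1 probe set, and the brightest, with the highest mean over the arrays, is used where a gene is given 1 value.

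Each of the 6 arrays held total RNA from the hippocampi of animals aged 2 to 3 months. The 3 IκBα-deficient arrays came from IκBαfl/-;Nestin-Cre mice, and the 3 control arrays from IκBαfl/- littermates. The series' design text speaks of 3 pairs but does not say which arrays make up a pair, so the groups were compared without pairing. IκBα, encoded by Nfkbia, holds NF-κB transcription factors inactive in the cytoplasm. Nestin-Cre recombines the floxed allele in neural precursors and so reaches neurons, astrocytes and oligodendrocytes, while microglia and blood vessels come from other lineages. Every animal, controls included, carried a null allele beside the floxed one, and the recombinase was present only in the deficient group, so effects of Cre and of IκBα loss cannot be told apart. The values are RMA values on the log2 scale, in which a difference of 1 is a doubling, and each group value is a mean ± SD over n = 3 arrays.

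Interneurons are the minority of hippocampal neurons that release GABA, the main inhibitory transmitter of the adult brain. GAD67 (Gad1) and GAD65 (Gad2) convert glutamate to GABA, and the vesicular transporter VGAT (Slc32a1) loads it into synaptic vesicles. The transcription factors Dlx1 and Lhx6 act in interneurons born in the ganglionic eminences. Parvalbumin (Pvalb), calbindin (Calb1), calretinin (Calb2) and Reelin (Reln) mark subtypes, though calbindin is also abundant in dentate granule cells and calretinin in mossy cells of the mouse dentate gyrus. In whole tissue, fewer cells of a type and less RNA per cell cannot be told apart.

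Because IκBα restrains NF-κB, the promoters of these genes were searched for the κB motif, the 10-base NF-κB consensus, on both strands. RefSeq windows (build GRCm38.p6) of 250 bases before and 50 after an annotated start were at hand for 7 of the 9 genes, 10 windows in all. A κB match was present in 2 of the 10 windows, 1 of the 3 for Lhx6 and the only window for Slc32a1. Of all 32851 windows of this length, 8.46% held one. The homeodomain core TAATTA, of the kind bound by Dlx and Lhx factors, was in 0 of the 10 windows and in 5.29% of all windows. Both κB matches are shown on the strand of the gene with the matching bases in capitals, the Lhx6 match starting 130 bases before the start at chr2:36104644-36104673 (minus strand). The Slc32a1 match starts 32 bases before the start at chr2:158610717-158610745 (plus strand), where a pair of overlapping matches spans 11 bases.
Lhx6: tctttggcttGGGGCTTCCCttgaactggc
Slc32a1: gcagcacttGGGGGGCCCCCaccctttcg
A match is a description of the letters and not evidence of binding, and the levels of both genes are given below.

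None of the 9 genes passed the test, and the arrays of the groups overlapped for each. By limma with Benjamini-Hochberg adjustment over all 45037 non-control probe sets, 0 of the 19 probe sets passed an adjusted p of 0.05, against 0.00666% of all probe sets. At an unadjusted p under 0.05 there were again 0 of 19, where 3.34% of all probe sets passed. The arrays of the groups overlapped for all 19, while 8.45% of all probe sets had groups that did not overlap. The brightest probe sets differed by -0.14 to 0.11 on the log2 scale, with 6 higher and 3 lower in deficient animals and a median of 0.019. The median over all 18193 genes was 0.0058. The smallest unadjusted p was 0.125, for Pvalb, and all 19 adjusted p rounded to 1.00 (limma). The 3 probe sets that passed over the whole table were all of Nfkbia and all lower.

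**Figure D1:**
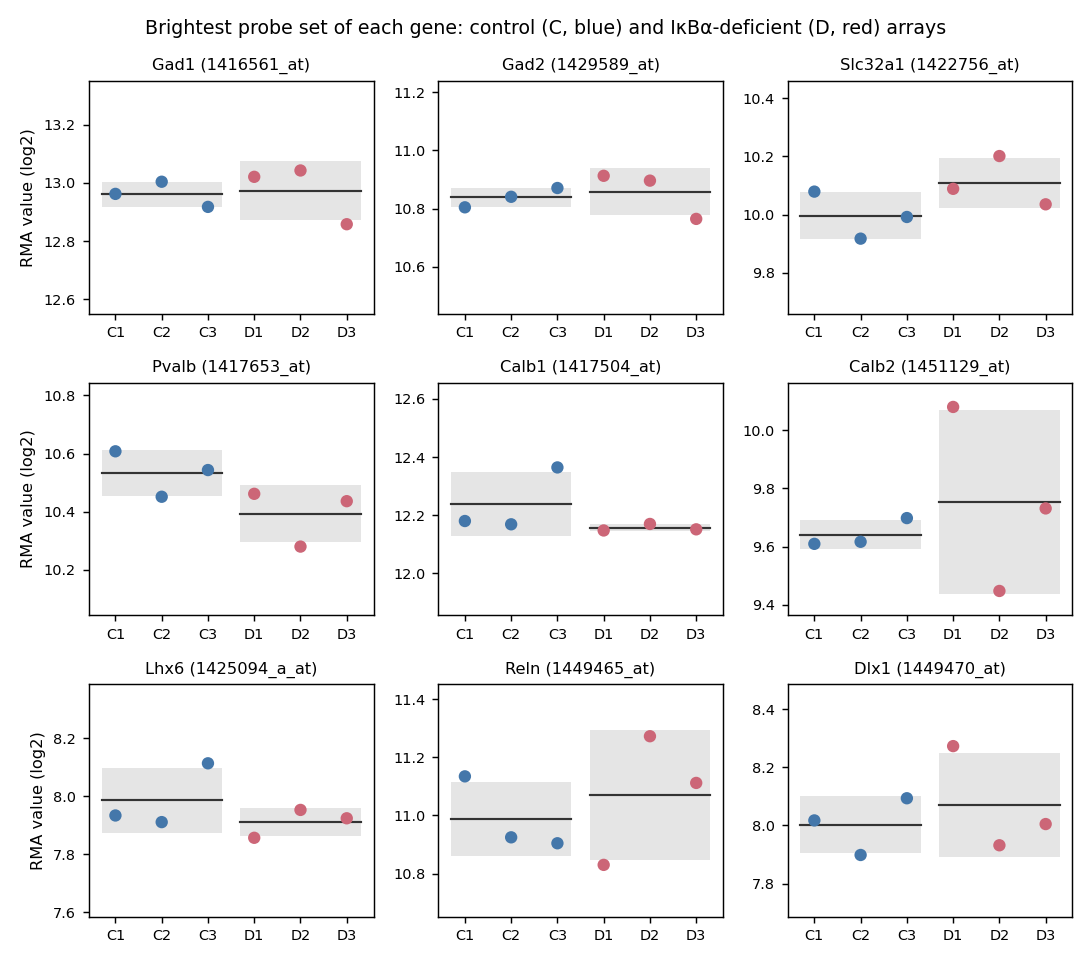
RMA value (log2) of the brightest probe set of each of the 9 genes on each array, with control arrays 1 to 3 in blue (C1 to C3) and IκBα-deficient arrays 1 to 3 in red (D1 to D3); each panel spans 0.8 log2 units, lines are group means and grey bands 1 SD. The groups overlap in every panel, and Calb2 has the widest spread among deficient arrays, from 9.45 to 10.08.

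Gad1 messenger, read by 1416561_at, was at 12.96, 13.00 and 12.92 in the controls and at 13.02, 13.04 and 12.86 in deficient animals. The deficient arrays held both the highest and the lowest value, around nearly the same mean. The group means were 12.96 ± 0.04 and 12.97 ± 0.10 (SD, n = 3), a difference of 0.013 ± 0.078 (SE). The 95% interval reached from -0.17 to 0.19, which is 0.89-fold to 1.14-fold.

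Gad2, read by 1429589_at, showed a similarly small difference. The controls stood at 10.80, 10.84 and 10.87 and the deficient arrays at 10.91, 10.90 and 10.76. Deficient array 3 was the lowest of the 6 and deficient array 1 the highest. The means were 10.84 ± 0.03 and 10.86 ± 0.08, and the difference of 0.019 ± 0.073 (SE) had a 95% interval of -0.15 to 0.19, or 0.90-fold to 1.14-fold. Deficient array 3 was the lowest array for Gad1 as well.

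The dimmer probe set of each Gad gene stood apart on a single array. For Gad1, 1416562_at was at 9.44, 9.07 and 9.45 in controls and at 9.35, 7.36 and 9.39 in deficient animals. Deficient array 2 lay 1.98 below the mean of the other 5 arrays, while 1416561_at was higher there than on any other array. The mean difference of -0.62 ± 0.50 (SE) therefore rested on that array, and without it the difference was 0.048 ± 0.129. For Gad2, 1421978_at was at 7.64, 7.45 and 7.64 in controls and at 8.05, 7.13 and 7.84 in deficient animals. Deficient array 2 was again the lowest of the 6, with the other deficient arrays above all controls. Its difference was 0.095 ± 0.218 over all arrays. Without deficient array 2 it was 0.37 ± 0.10, or 1.29-fold higher, with an unadjusted p of 0.0102 and an adjusted p of 1.00 (limma). The brightest Gad2 probe set showed no such difference, with a mean of 10.84 over the remaining deficient arrays.

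Deficient array 2 also had the widest gap between the 3′ and 5′ control probe sets of Gapdh and β-actin, 2.02 on the log2 scale beside 0.56 to 0.73 on the other 5 arrays. Such a gap grows when RNA is degraded or copied incompletely from its 3′ end. On that array 268 of 45037 probe sets lay 1 log2 unit or more under the mean of the other 5, against 3 to 47 on each other array, by a limit chosen after the values were seen. Where the Gad1 and Gad2 probes lie along their transcripts is not given in the sources used here, and the part of RNA quality in these values was not tested.

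**Figure D2:**
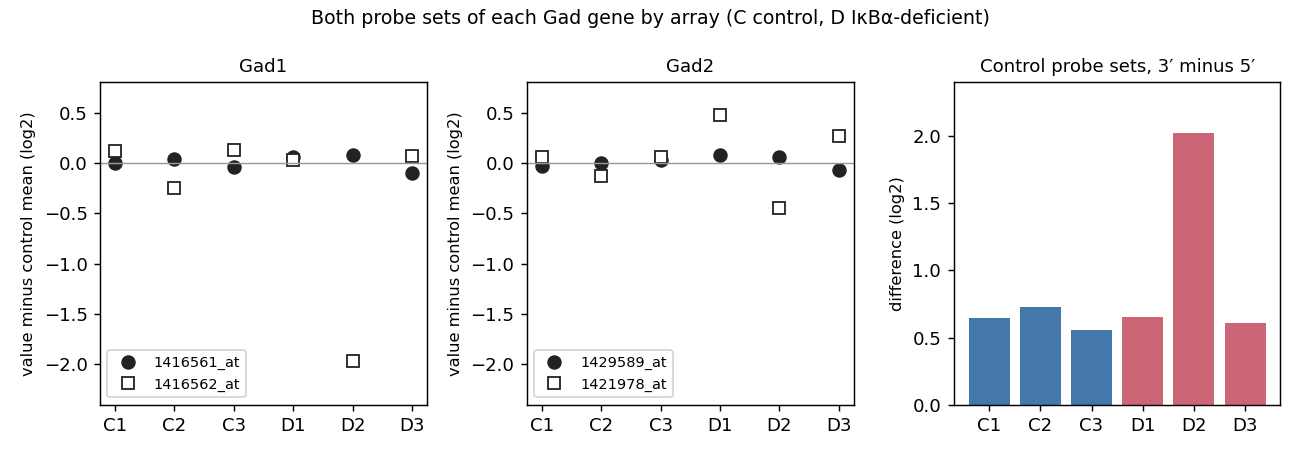
Both probe sets of Gad1 (left) and Gad2 (middle) on each array, as value minus the control mean of that probe set (log2), with the brightest filled; at right, the 3′ minus 5′ difference of control probe sets per array (log2). Control arrays are C1 to C3 and IκBα-deficient arrays D1 to D3. On D2 the open Gad1 symbol lies far below all others while the filled one is near 0, and the bar at right is highest there at 2.02.

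VGAT completes the machinery that every GABA neuron uses. Slc32a1, read by 1422756_at, was at 10.08, 9.92 and 9.99 in controls and at 10.09, 10.20 and 10.04 in deficient animals. All 3 deficient arrays lay above controls 2 and 3, but deficient array 3 was below control 1. The means were 9.996 ± 0.081 and 10.11 ± 0.08, a difference of 0.11 ± 0.08 (SE) or 1.08-fold, with an unadjusted p of 0.199. The difference was 0.066 without deficient array 2, 0.073 without control array 2 and 0.019 ± 0.125 (SE) with the choroid plexus markers as a covariate. These markers were themselves higher in the deficient group by mean, so that fit cannot cleanly separate them from genotype. The 3 dimmer probe sets gave -0.0075 for 1456457_at, 0.029 for 1447574_s_at and -0.064 for 1447573_at, the last at -0.0053 without control array 2 and -0.15 without deficient array 2. The probe sets of the gene thus did not share a direction, and the dimmest were at 5.24 and 4.88 in controls, low values at which RMA compresses differences.

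Among the subtype markers, Pvalb had the smallest p of the 9 genes. Parvalbumin is a calcium buffer of fast-spiking basket and axo-axonic cells, which inhibit the soma and axon initial segment of pyramidal cells. Its single probe set, 1417653_at, was at 10.61, 10.45 and 10.54 in controls and at 10.46, 10.28 and 10.44 in deficient animals. Deficient array 2 was the lowest, and control array 2 lay just under deficient array 1, so the groups overlapped. The means were 10.53 ± 0.08 and 10.39 ± 0.10, a difference of -0.14 ± 0.08 (SE), or 1.10-fold lower, with an unadjusted p of 0.125 and an adjusted p of 1.00 (limma). The 95% interval of -0.33 to 0.05 reached from 0.79-fold to 1.03-fold. The direction was the same with each array left out in turn, from -0.18 without control array 2 to -0.085 without deficient array 2.

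Calb1, the calbindin gene, varied least among deficient animals when the 9 genes were read by their brightest probe sets. Probe set 1417504_at was at 12.18, 12.17 and 12.36 in controls and at 12.15, 12.17 and 12.15 in deficient animals. Control array 3 stood above the other 5, which lay close together. The difference was -0.081 ± 0.078 (SE), and -0.018 without control array 3. The other 3 probe sets differed by -0.056 for 1456934_at, -0.014 for 1448738_at and -0.058 for 1458836_at, all with groups that overlapped. The dim 1458836_at varied more among deficient animals, with an SD of 0.29 beside 0.012 for 1417504_at. Granule cells also express calbindin. Of 11 granule cell markers 10 were lower in deficient animals, 2 at an unadjusted p under 0.05 and 0 at an adjusted p of 0.05. Of all 18193 genes, 1.06% were lower at an unadjusted p under 0.05. The list mean of the granule cell markers was 9.05 to 9.19 in controls and 8.97 to 9.02 in deficient arrays. The trend was not particular to granule cells. Of 10 measured CA pyramidal cell markers 8 were lower, 1 at an unadjusted p under 0.05 and 0 at an adjusted p of 0.05 (limma). Their list mean was 9.88 to 10.03 in controls and 9.86 to 9.94 in deficient arrays. The part of granule or pyramidal cell content in the Calb1 values was not tested.

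Calb2 varied most among the brightest probe sets. Calretinin marks interneurons that contact other interneurons as well as mossy cells, and it is abundant in thalamic nuclei near the hippocampus. Probe set 1451129_at was at 9.61, 9.62 and 9.70 in controls and at 10.08, 9.45 and 9.73 in deficient animals. Deficient array 1 was the highest of the 6 and deficient array 2 the lowest. The SD was 0.05 in controls and 0.32 in deficient animals, and the difference of 0.11 ± 0.15 (SE) turned to -0.052 without deficient array 1. Of the 9 thalamic markers, Calb2 itself among them, 7 were higher in deficient animals and 0 passed an unadjusted p of 0.05. Prkcd, a kinase gene abundant in thalamus, was at 8.51 on deficient array 1 and at 7.74 to 8.01 on the other 5 arrays. Other thalamic markers did not share that peak. Slc17a6 was at 9.72 on deficient array 1, beside 9.76 on control array 1 and 9.76 on deficient array 2. Plekhg1 was highest on deficient array 2, at 8.99. The mean of the 7 thalamic markers left after Calb2 and the neuropeptide gene Tac2 were set aside was 7.97 to 8.11 in controls and 8.06 to 8.23 in deficient arrays, highest on deficient array 2, where Calb2 was lowest. Tac2 went the other way, with a difference of -0.18 and its lowest value, 6.91, on deficient array 1. The part of thalamic tissue in the Calb2 values was not tested.

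Reln encodes a secreted glycoprotein that guides neuronal layering in development and is made by Cajal-Retzius cells and by interneurons in the adult. Probe set 1449465_at was at 11.13, 10.92 and 10.90 in controls and at 10.83, 11.27 and 11.11 in deficient animals. Deficient arrays held the lowest and the highest value. The difference was 0.084 ± 0.125 (SE) and turned to -0.017 without deficient array 2. For the dim 1458020_at the control mean was 3.68 ± 0.16 and the deficient mean 3.63 ± 0.07, and only 6.95% of probe sets had a lower mean. Among 7 Cajal-Retzius markers 5 were higher and 2 lower in deficient animals. At an unadjusted p under 0.05 stood 1 of them, Ndnf, higher by 0.19 and with groups that did not overlap. Of all 18193 genes, 2.61% were higher at that limit, and 9.76% had groups that did not overlap in either direction. Nhlh2 differed by -0.21, its deficient arrays all below the controls, while groups overlapped for Ebf2 at 0.31 and Cacna2d2 at 0.15. The defining genes Trp73, Lhx1 and Lhx5 differed by 0.0021, 0.0091 and -0.016. Lhx1, Lhx5, Ebf2 and Nhlh2 were dim, with control means of 4.60, 4.08, 4.11 and 5.25. Ebf2 was at 4.96 on deficient array 1 and at 4.29 or less on the others. The part of Cajal-Retzius cells in the Reln values was not tested.

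The transcription factors of interneuron fate gave no difference past the test either. Lhx6, which is required for parvalbumin and somatostatin interneurons of the medial ganglionic eminence, was at 7.93, 7.91 and 8.11 in controls and at 7.86, 7.95 and 7.92 in deficient animals by 1425094_a_at. Control array 3 was the highest of the 6, and the others lay close together. The difference was -0.075 ± 0.081 (SE), with a 95% interval from 0.83-fold to 1.08-fold, and it was -0.011 without control array 3. The dim 1422262_a_at differed by -0.15 ± 0.12, from 3.76 ± 0.14 to 3.61 ± 0.19, with -0.26 without deficient array 3 and -0.087 without deficient array 2. Dlx1, which maintains a subset of interneurons after birth, was at 8.02, 7.90 and 8.09 in controls and at 8.27, 7.93 and 8.005 in deficient animals. Deficient array 1 was the highest, and the difference was 0.067 ± 0.106 (SE). Lhx6 and Slc32a1, the genes with a κB match in the windows shown, differed by -0.075 and 0.11 by their brightest probe sets, and neither passed the test. Of the dimmer Slc32a1 probe sets, 1456457_at and 1447573_at were lower, as the Lhx6 probe sets were, and 1447574_s_at was higher. A link between the match and these levels was not tested.

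**Figure D3:**
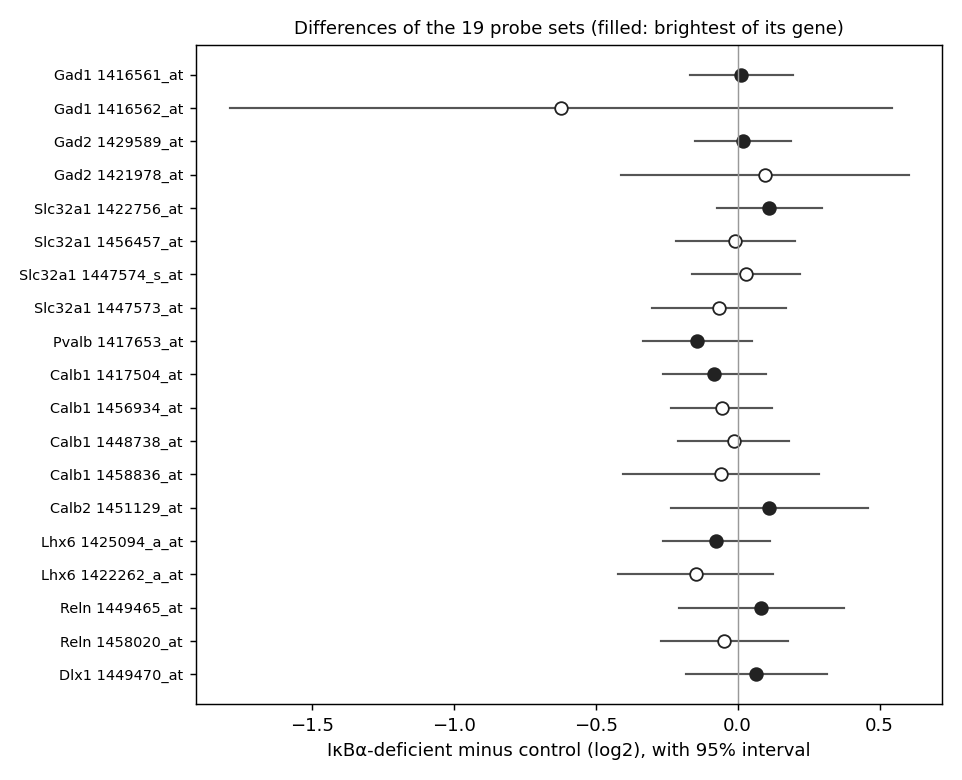
Difference between IκBα-deficient and control arrays (log2) for each of the 19 probe sets, with the 95% interval from limma; filled symbols are the brightest probe set of a gene. Every interval includes 0, and the interval of Gad1 1416562_at is the widest, from -1.79 to 0.54.

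Taken over the 9 brightest probe sets, the intervals reached at most from 0.79-fold to 1.37-fold. No array was low or high throughout. Deficient array 1 was the highest of the 6 for 3 of the 9 genes and the lowest for 3, and deficient array 2 the highest for 3 and the lowest for 2. The mean over the 9 genes was 10.30 to 10.39 in controls and 10.34 to 10.41 in deficient arrays, and the mean of 9 general neuronal markers was 12.51 to 12.58 and 12.53 to 12.55.

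The genes around these 9 were read from lists of related genes, each by its brightest probe set. In the list of GABA uptake, breakdown, precursor supply and GABA-B receptors, 11 of 15 genes had a probe set of their own, 9 higher and 2 lower, with a median of 0.054. At an unadjusted p under 0.05 stood 1 higher and 0 lower, where 2.61% and 1.06% of all 18193 genes stood, and 0 passed an adjusted p of 0.05 (limma). That gene was Slc38a3, a glutamine transporter of astrocytes, at 8.97, 8.99 and 8.87 in controls and 9.20, 9.03 and 9.16 in deficient animals, a difference of 0.19 ± 0.08 (SE). All 3 deficient arrays lay above the controls, though deficient array 2 only just. Of the 11 genes, groups did not overlap for 1 above, Slc38a3, and 2 below, beside 9.76% of all genes in either direction. The transporters Slc6a13 and Slc6a12 differed by 0.50 ± 0.41 and 0.26 ± 0.19, with deficient array 2 far above the rest at 8.31 for Slc6a13. Slc6a12 was dim, with a control mean of 4.03. Slc6a13 is also a gene of the meninges, and the 13 meningeal markers, Slc6a13 included, were all higher by mean difference, with list means of 6.94 to 7.68 in controls and 7.57 to 8.77 in deficient arrays and the maximum on deficient array 2. Without that array Slc6a13 differed by 0.019 and Slc6a12 by 0.045, and the part of meninges in them was not tested. GABA transaminase (Abat) and the astrocytic GABA transporter Slc6a11 differed by 0.070 and 0.0079.

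Of 21 listed interneuron transcription factors 16 were measured, with 10 higher, 6 lower, a median of 0.028 and 0 at an unadjusted p under 0.05. The smallest p belonged to Dlx5 at -0.18 ± 0.10, Sp8 at 0.34 ± 0.22 and Gsx2 at -0.19 ± 0.13 (SE). Sp8 and Gsx2 were dim, with control means of 4.85 and 4.69, and Sp8 was highest on deficient array 1 at 5.75. Dlx2, the neighbour and partner of Dlx1, differed by 0.11 ± 0.11.

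Of 32 genes that mark interneuron subtypes 31 were measured, with 14 higher, 17 lower and a median of -0.018. At an unadjusted p under 0.05 stood 1 higher and 2 lower, where 2.61% and 1.06% of all genes stood, and 0 passed an adjusted p of 0.05 (limma). Ndnf, a marker of neurogliaform cells and also of Cajal-Retzius cells, was at 9.09, 9.08 and 9.11 in controls and at 9.34, 9.24 and 9.27 in deficient animals, a difference of 0.19 ± 0.07 (SE) with an unadjusted p of 0.0228. The deficient arrays lay above all controls. Npy, a neuropeptide of several interneuron types, was at 11.28, 11.24 and 11.34 in controls and at 11.13, 11.00 and 11.18 in deficient animals, a difference of -0.18 ± 0.08 with an unadjusted p of 0.045. The chemokine Cxcl14, found in some interneurons of the outer layers, differed by -0.20 ± 0.08. Without deficient array 2, Npy differed by -0.13 and Cxcl14 by -0.14, with unadjusted p of 0.105 and 0.109, while Ndnf was at 0.21. In that fit the list had 1 gene higher and 3 lower at an unadjusted p under 0.05, the lower ones being Tac1, Htr3a and Tacr1 at -0.21, -0.24 and -0.23, named after their values were seen. Htr3a was only just under the limit, at 0.0499 (limma). Of all 45037 probe sets, 1777 stood under it in that fit and 1505 with all 6 arrays. Groups did not overlap for 7 of the 31 genes, 4 above and 3 below, beside 9.76% of all genes. All 13 measured choroid plexus markers were higher by mean difference in the same animals, 12 at an unadjusted p under 0.05, with list means of 5.65 to 7.69 in controls and 7.57 to 8.50 in deficient arrays, and the part of tissue composition in these values was not tested.

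On the receiving side, 13 of 15 proteins of the inhibitory postsynapse were measured, with 7 higher, 6 lower, a median of 0.0015 and 0 at an unadjusted p under 0.05. Iqsec3, a binding partner of gephyrin, had the smallest p at -0.13 ± 0.07 (SE), followed by Insyn1 at -0.15 ± 0.12 and Mdga2 at 0.10 ± 0.09. Gephyrin itself (Gphn) differed by 0.017 and the adhesion molecule Nlgn2 by 0.022. All 9 genes of Reelin signalling were measured, with 4 higher, 5 lower, a median of -0.012 and again 0 at an unadjusted p under 0.05. The Reelin receptor gene Vldlr differed by 0.11 ± 0.07, the kinase gene Fyn by -0.13 ± 0.09 and the adaptor gene Crkl by -0.096 ± 0.068. Groups did not overlap for 2 of these 9 genes above the controls and 1 below, beside 9.76% of all genes in either direction.

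**Figure D4:**
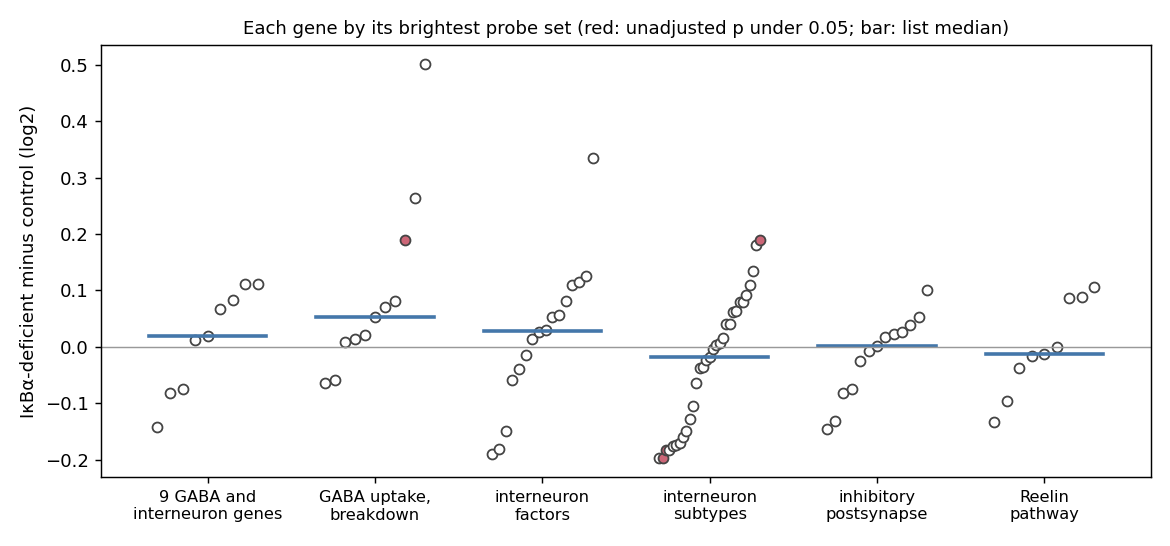
Difference between IκBα-deficient and control arrays (log2) for each gene of the 9 and of 5 related lists, by brightest probe set; red points had an unadjusted p under 0.05 and blue bars are list medians. The medians lie between -0.018 and 0.054, and Slc6a13 is the highest point at 0.50.

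**Figure D5:**
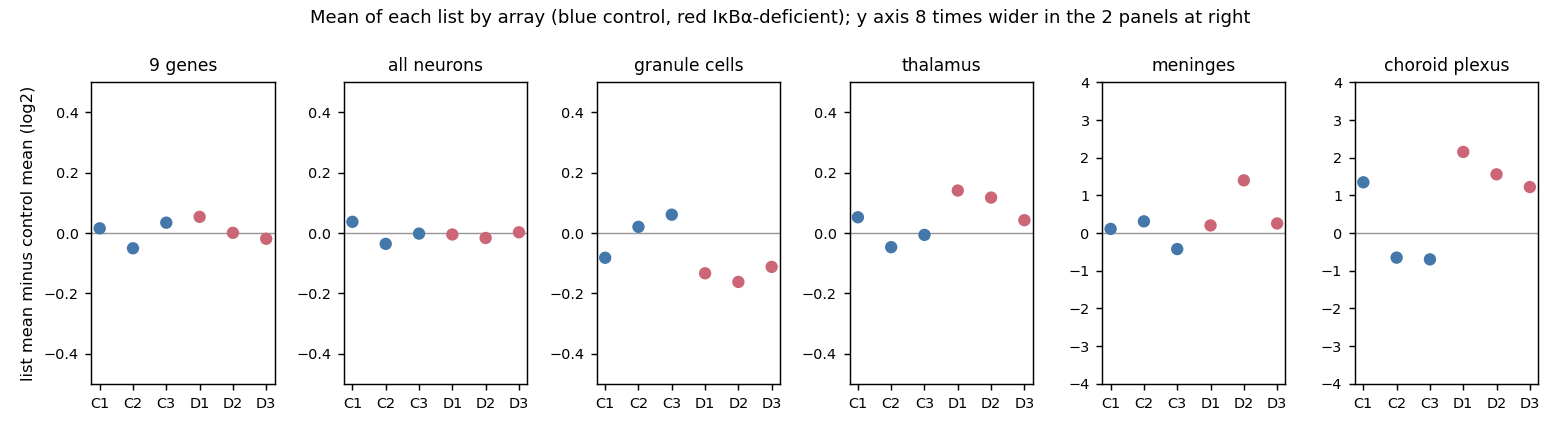
Mean of each list on each array minus its mean over the controls (log2), for the 9 genes and 5 marker lists, with control arrays (C1 to C3) in blue and IκBα-deficient arrays (D1 to D3) in red; the meninges and choroid plexus panels have a wider axis. The 9 genes and the general neuronal markers stay near 0 on all arrays, while choroid plexus is lowest on C2 and C3 and meninges is highest on D2.

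For each gene, the transcript with the nearest profile over the 6 arrays was found among 11974 other genes brighter than the median, as the smallest mean absolute difference between values taken minus their own mean. For Gad1 it was Ssbp1 (0.014 on the log2 scale), for Gad2 Casp2 (0.011), for Slc32a1 Rhobtb3 (0.0088) and for Pvalb Gpn2 (0.015). The other nearest genes were 5730455P16Rik for Calb1 (0.013), Nfe2l3 for Calb2 (0.058), Sox11 for Lhx6 (0.012), Cenpw for Reln (0.036) and Mpp5 for Dlx1 (0.025). None of these was another of the 9 genes, and with 6 arrays and this many candidates they describe the arrays only.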

How the data were processed

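Hippocampal total RNA of 6 mice, 3 per group, had been measured on Affymetrix arrays. The deposited log2 values came from RMA, as the submitters' processing notes state. Its version, its annotation and any genome build were not given in the sources used here. RMA compresses differences between dim probe sets, and its quantile step would hide a change shared by most genes. Array medians were 6.08 to 6.12. Precision is limited by the number of arrays.

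Of 45101 probe sets, 64 controls were left out and 45037 fitted with limma 3.58.1 in R 4.3.3 (lmFit, eBayes, genotype only, two-sided, Benjamini-Hochberg, threshold 0.05). Genes were named by GEO's platform annotation from probe sets with 1 symbol. On simulated data 25.5% of probe sets changed by 0.5 and 74.9% of those changed by 1 were recovered. The simulation drew independent normal noise and changed 200 probe sets per dataset. It held no effects shared between probe sets, such as tissue content or RNA quality, so it does not give the recovery on these arrays. The design text's 3 pairs are not tied to arrays, and the repeat numbers of the labels were not taken as pairs: deviations of same-numbered arrays correlated at -0.0044, 0.27 and 0.033. The genes, lists and rules were chosen with earlier results of these data known. Text names all probe sets of the 9 genes, the 3 smallest p of each related list, the nearest profile and genes added for their role or marker value. Alternatives left out each array, added the repeat number, array weights, a choroid plexus or 3′ to 5′ covariate, and changed normalization, filter, variance model and probe sets. Figures used matplotlib 3.10.9.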

Additional observations from a re-analysis of the deposited data

How the results depend on the processing

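In 308 alternative values of the 19 probe sets, 0 passed an adjusted p of 0.05 (limma), and 272 kept the sign of the main difference. The sign turned in 21 values with an array left out and in 15 others; the cause was not tested. With the choroid plexus covariate Gad1 1416561_at was at -0.024, Gad2 1421978_at at -0.054, Slc32a1 1456457_at at 0.031, 1447574_s_at at -0.064 and 1447573_at at 0.090, Calb1 1448738_at at 0.16 and 1458836_at at 0.19, Lhx6 1425094_a_at at 0.0016 and Dlx1 at -0.020. The choroid plexus markers were higher in the deficient group by mean, so this fit cannot cleanly separate them from genotype. Its SE for Gad1 1416561_at was 0.13, beside 0.078 in the main fit. With the 3′ to 5′ covariate Gad1 1416561_at was at -0.024 and 1416562_at at 0.034, and Reln 1449465_at at -0.012. With array weights Slc32a1 1456457_at was at 0.030, Calb1 1448738_at at 0.019 and Reln 1449465_at at -0.027. For the probe sets whose sign turned with an array left out, the full ranges over these fits follow. They were -0.022 to 0.071 and -0.97 to 0.048 for Gad1, and -0.0082 to 0.066 and -0.093 to 0.37 for Gad2. Slc32a1 had -0.059 to 0.066 and -0.026 to 0.057, and Calb1 -0.088 to 0.0035, -0.081 to 0.026 and -0.20 to 0.089. Calb2 had -0.052 to 0.26, Reln -0.017 to 0.20 and -0.12 to 0.042, and Dlx1 -0.035 to 0.14.

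At an unadjusted p under 0.05 the 19 probe sets gave 1 without IκBα-deficient array 2 and with the 3′ to 5′ covariate (Gad2 1421978_at both times) and 1 without IκBα-deficient array 3 (Lhx6 1422262_a_at). In those fits 1777, 1872 and 2337 of all 45037 probe sets stood under the same limit, in that order. The 3′ to 5′ covariate was 2.02 on IκBα-deficient array 2 and 0.56 to 0.73 on the others. Its fit thus nearly repeats leaving that array out, and the Gad2 1421978_at results of 0.36 and 0.37 are not separate findings. Of all 45037 probe sets, 3 passed the adjusted threshold. The count was 0 without moderation, with the choroid plexus covariate or with 1 probe set per gene, 1 with the 3′ to 5′ covariate and 1 to 8 with an array left out, 8 being the count without control array 1 and 1 the count without control array 3 or IκBα-deficient array 2. At an unadjusted p under 0.05 it was 1505, with 706 under the choroid plexus covariate, 857 with 1 probe set per gene, 992 without dim probe sets and, with an array left out, 1109 without control array 3 to 2337 without IκBα-deficient array 3. With the repeat number as a replicate block 2 probe sets passed, 0 of them among the 19, and Pvalb was at -0.14 with an unadjusted p of 0.101. The pathway list counts without IκBα-deficient array 2 were added after seeing the data.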

Other observations

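The low value of Gad1 1416562_at on IκBα-deficient array 2, beside a level brightest probe set, was one of many of its kind on that array. Among 16752 probe sets that were not the brightest of their gene, 173 (1.03%) lay 1 log2 unit or more below the mean of the other 5 arrays there while the brightest probe set of the same gene was within 0.2 of it. On each of the other 5 arrays the number was 0 or 1. The limits of 1 and 0.2 were chosen after the values were seen.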
